A study of Homo sapiens with 8 samples.

Results

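The 7 genes described here encode a regulator and 6 enzymes of fatty acid and sterol synthesis: SREBF1, ACSS2, ACACA, ELOVL5, MVD, SQLE and DHCR7. They were measured among 14884 genes in RNA from PC-3, a human prostate cancer line that grows without androgen. RWDD4 had been brought in on a lentiviral vector in 4 clonal isolates, called RWDD4 clones 17, 24, 5 and 6. Another 4 isolates, control clones 2, 3, 4 and 5, received the vector without an insert. Cells of both groups had been selected with blastocydin, as the label spells the antibiotic, each sample was 1 clone on 1 array, and the sources used here do not give the promoter that drives RWDD4. The 7 genes were chosen from fatty acid and cholesterol synthesis genes with their differences between these groups already known. Their differences are therefore given as a description, without a test. Each was read by 1 probe set.

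Fatty acids and sterols are both built from acetyl-CoA. ACSS2 makes acetyl-CoA from acetate, ACACA carboxylates it to malonyl-CoA, FASN joins these units into palmitate, and the ELOVL enzymes lengthen the chain. Sterol synthesis runs through mevalonate, isoprenoids and squalene to cholesterol; MVD makes the isoprenoid unit, SQLE adds oxygen to squalene, and DHCR7 makes the last reduction. SREBF1 and SREBF2 encode membrane-bound transcription factors, the SREBPs, which SCAP escorts to the Golgi when sterols are low and INSIG proteins hold in the endoplasmic reticulum when they are high. Prostate tumours are known for active lipid synthesis, which androgen promotes in lines that respond to it.

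RWDD4, whose product carries an RWD domain, lay at 10.42, 10.45, 10.46 and 9.87 in RWDD4 clones 17, 24, 5 and 6, against 6.64, 7.58, 7.21 and 8.0 in control clones 2, 3, 4 and 5, all on the log2 scale of the deposited values. The groups did not overlap (exact permutation p 0.0286, two-sided, the smallest that 70 relabellings allow). Of all genes 46.7% passed the test between the groups, 3741 upward and 3214 downward by limma. After each array was centred on its median over the genes the split was 3307 upward and 5765 downward, as that scaling moves the median difference of all genes to -0.21, against -0.08 as deposited. Control clone 2 stood apart: it was the lowest control clone in 35.7% of genes and had an array weight of 0.4, against 0.782 to 1.42 for the other 7 arrays. KRT18 and KRT8 of simple epithelia averaged 10.61 ± 0.17 and 6.50 ± 0.12 in the RWDD4 clones, against 11.01 ± 0.14 and 6.78 ± 0.08 in the control clones (SD, n = 4 each), and both fell. A second probe set of KRT18 averaged only 7.35 over the 8 arrays, against 10.81 for the one used, and differed by -0.3. EPCAM, the third epithelial marker measured, averaged 6.53 ± 0.36 in the RWDD4 clones and 6.4 ± 0.06 in the control clones (SD, n = 4 each) and did not pass (adjusted p 0.52 by limma). KLK3, which androgen induces, averaged 5.76 ± 0.16 in the RWDD4 clones and 5.81 ± 0.25 in the control clones (SD, n = 4 each). Of 13 measured markers of epithelial, luminal, stromal, blood, endothelial, fat and liver cells none rose and 6 fell, where 25.1% of all genes rose and 21.6% fell. Among those that fell, CD14 and VWF averaged 4.3 and 4.69 over the 8 arrays, low values under the minimum mean of 5 used as a filter. Each culture was a clone of 1 cancer line, so markers of other cell kinds are not read as numbers of such cells. In RNA from whole cultures, fewer cells that express a gene and less of its RNA per cell cannot be told apart.

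The RefSeq promoter table (GRCh38.p14) held 6 of the 7 genes, all but SQLE. In the 250 bases before the gene start the CCAAT box, to which NF-Y binds and beside which SREBPs often act, was searched as CCAAT on both strands. It was found 3 times for MVD, 2 times each for DHCR7 and ELOVL5, 1 time for ACSS2 and not for ACACA or SREBF1, and 33.0% of 27305 promoters hold it. The sterol regulatory element, searched as TCACNCCAC on both strands, was in none of the 6 windows and in 0.875% of all promoters. Only 1 window per gene and this exact pattern were searched. Elements at other starts, outside the window or with other letters would be missed, so its absence from a gene is not shown. The GC box, searched as GGGCGG on both strands, was found 5 times for ACACA, where 4 matches on the minus strand overlap each other, 4 times for DHCR7, 3 times for SREBF1, 1 time each for MVD and ACSS2, and not for ELOVL5 (42.3% of all promoters hold it). The E-box CACGTG was found 1 time, for ELOVL5, and 6.49% of all promoters hold it. Related genes also held these boxes. The 27305 promoters were not limited to measured genes or filtered by gene type, while the listed genes are all protein-coding. The shares are therefore not like for like, and no difference between them was tested. The CCAAT box was in 10 of 19 windows of other fatty acid synthesis genes and 9 of 13 of other sterol synthesis genes. Genes of SREBP control and lipoprotein uptake held it in 6 of 8. For the GC box these counts were 15 of 19, 10 of 13 and 7 of 8. Shown are the windows of MVD and DHCR7, lower in the RWDD4 clones, and of ELOVL5 and ACACA, higher in them. Each runs 5′ to 3′ along its gene's strand. CCAAT boxes occur on both sides of that divide, in MVD, DHCR7 and ELOVL5, but not in ACACA. Capitals mark CCAAT or its reverse complement ATTGG.
MVD (chr16:88663092-88663341, strand minus): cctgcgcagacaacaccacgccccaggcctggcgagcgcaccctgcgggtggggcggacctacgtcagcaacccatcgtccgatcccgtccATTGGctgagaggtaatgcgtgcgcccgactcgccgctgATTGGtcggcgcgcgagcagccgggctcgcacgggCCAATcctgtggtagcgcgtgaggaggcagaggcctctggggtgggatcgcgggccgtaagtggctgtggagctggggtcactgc
DHCR7 (chr11:71448394-71448643, strand minus): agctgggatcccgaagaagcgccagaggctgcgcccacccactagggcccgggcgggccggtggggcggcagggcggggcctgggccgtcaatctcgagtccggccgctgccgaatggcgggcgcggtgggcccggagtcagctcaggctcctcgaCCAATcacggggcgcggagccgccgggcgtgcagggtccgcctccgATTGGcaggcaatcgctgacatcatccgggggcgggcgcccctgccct
ELOVL5 (chr6:53348951-53349200, strand minus): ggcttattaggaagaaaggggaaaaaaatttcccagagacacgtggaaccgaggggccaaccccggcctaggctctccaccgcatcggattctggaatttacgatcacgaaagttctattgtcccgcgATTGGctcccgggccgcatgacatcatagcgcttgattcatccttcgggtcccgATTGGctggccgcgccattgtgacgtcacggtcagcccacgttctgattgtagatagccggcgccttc
ACACA (chr17:37406837-37407086, strand minus): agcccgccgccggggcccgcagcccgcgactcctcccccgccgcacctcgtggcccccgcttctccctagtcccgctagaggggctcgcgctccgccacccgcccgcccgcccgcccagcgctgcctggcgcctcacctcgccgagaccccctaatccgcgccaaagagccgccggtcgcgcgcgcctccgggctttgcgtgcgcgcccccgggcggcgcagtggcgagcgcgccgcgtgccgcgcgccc
The GC content of these windows was 69.6% for MVD, 75.2% for DHCR7, 56.0% for ELOVL5 and 81.6% for ACACA.

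Of the 7 genes, ACACA, ELOVL5 and SQLE were higher and SREBF1, ACSS2, MVD and DHCR7 lower in the RWDD4 clones. The groups did not overlap in 5 of them, SQLE and MVD being the exceptions; groups did not overlap in 44.8% of all genes, and since the genes were chosen on this contrast nothing is read from the count.

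**Figure D1:**
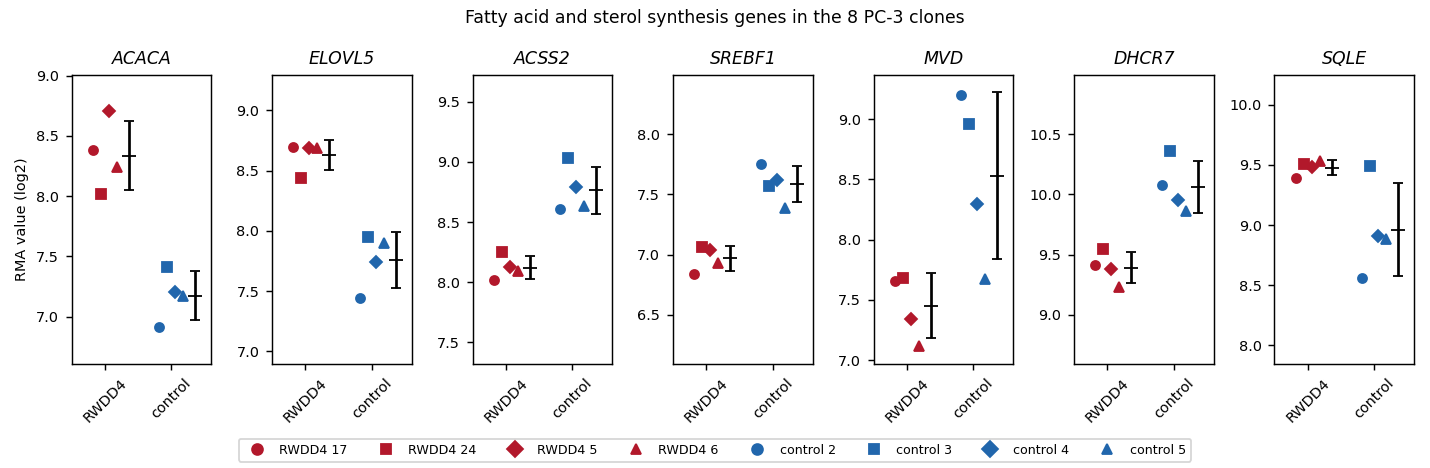
Deposited log2 values (vertical axis, a panel per gene, each spanning the same height) of the 4 RWDD4 clones and the 4 control clones, with mean and SD as black bars. ACACA, ELOVL5, ACSS2, SREBF1 and DHCR7 part the groups without overlap, control clone 5 (7.67) reaches the RWDD4 clones in MVD, and control clone 3 (9.49) reaches them in SQLE.

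SREBF1, which encodes the SREBP that mainly drives fatty acid genes, lay at 6.84, 7.06, 7.04 and 6.93 in RWDD4 clones 17, 24, 5 and 6, against 7.75, 7.57, 7.62 and 7.39 in control clones 2, 3, 4 and 5. Every RWDD4 clone lay below every control clone, with 0.34 between the nearest 2. The difference of RWDD4 minus control clones was -0.62 (SE 0.10), or 1.53-fold lower.

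ACSS2, the acetyl-CoA synthetase of cytosol and nucleus, lay at 8.02, 8.25, 8.13 and 8.09 in RWDD4 clones 17, 24, 5 and 6, against 8.61, 9.03, 8.79 and 8.63 in control clones 2, 3, 4 and 5. The RWDD4 clones were again all lower, by 0.36 at the closest, and control clone 3 was the highest. The difference was -0.64 (SE 0.11), or 1.56-fold lower. The mitochondrial acetyl-CoA synthetase gene ACSS1 lay at 6.29 ± 0.12 in the RWDD4 clones and 6.28 ± 0.04 in the control clones (SD, n = 4 each; adjusted p 0.874 by limma). ACSS1 and ACSS3 are given here for their kinship to ACSS2; ACSS3 did not pass either, at 0.03 (SE 0.09).

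ACACA, the acetyl-CoA carboxylase whose product is committed to fatty acids, lay at 8.38, 8.02, 8.71 and 8.24 in RWDD4 clones 17, 24, 5 and 6, against 6.91, 7.41, 7.2 and 7.17 in control clones 2, 3, 4 and 5. The RWDD4 clones were all higher, by 0.61 at the closest, and differed most from each other between clones 24 and 5. The difference was 1.17 (SE 0.15), or 2.24-fold, the widest of the 7 in absolute terms. ACACB, the isozyme at mitochondria whose product restrains fatty acid oxidation, averaged 7.95 ± 0.09 in the RWDD4 clones and 7.94 ± 0.12 in the control clones (SD, n = 4 each), a difference of 0.01 (SE 0.09) with an adjusted p of 0.922 by limma.

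ELOVL5, which lengthens polyunsaturated fatty acids, lay at 8.7, 8.44, 8.69 and 8.69 in RWDD4 clones 17, 24, 5 and 6, against 7.44, 7.95, 7.74 and 7.9 in control clones 2, 3, 4 and 5. Clone 24 was the lowest of the RWDD4 clones and still 0.49 above the highest control clone. The difference was 0.87 (SE 0.12), or 1.83-fold.

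MVD, the decarboxylase that makes isopentenyl diphosphate, lay at 7.66, 7.68, 7.34 and 7.12 in RWDD4 clones 17, 24, 5 and 6, against 9.2, 8.96, 8.3 and 7.67 in control clones 2, 3, 4 and 5. The control clones were spread over more than the group difference, and control clone 5 lay level with RWDD4 clones 17 and 24. The difference was -1.09 (SE 0.29), or 2.12-fold lower, and it was -0.86 without control clone 2 and -1.37 without control clone 5.

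SQLE, the epoxidase of squalene and a rate-limiting enzyme of the pathway, lay at 9.39, 9.51, 9.48 and 9.53 in RWDD4 clones 17, 24, 5 and 6, against 8.56, 9.49, 8.91 and 8.88 in control clones 2, 3, 4 and 5. The RWDD4 clones stood close together, with an SD of 0.06 against 0.39 in the control clones, and control clone 3 lay among them. The difference was 0.52 (SE 0.17), or 1.43-fold, and it was 0.39 without control clone 2 and 0.70 without control clone 3.

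DHCR7, the reductase whose product is cholesterol, lay at 9.41, 9.55, 9.38 and 9.23 in RWDD4 clones 17, 24, 5 and 6, against 10.08, 10.36, 9.95 and 9.86 in control clones 2, 3, 4 and 5. Every RWDD4 clone was lower, by 0.31 at the closest. The difference was -0.67 (SE 0.12), or 1.59-fold lower.

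The other genes of these pathways were taken from 7 lists that leave out the 7 genes above; 91 of 160 listed genes were measured, and 32 rose and 22 fell in the RWDD4 clones at an adjusted p under 0.05 over all 14884 genes (limma). That is 35.2% and 24.2%, beside 25.1% and 21.6% of all genes. The median difference was 0.03, beside -0.08 over all genes.

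Fatty acid synthesis genes moved both ways: 7 of 21 measured rose, 6 fell and 8 did not pass, with a median difference of -0.13. With a minimum mean of 5 it was 6 that rose and 5 that fell, with a median of -0.07. HSD17B12, which rose, and THRSP, which fell, averaged 4.12 and 4.52 over the 8 arrays. HSD17B12 is named only for its low value. ELOVL2, which lengthens long polyunsaturated chains, rose by 1.21 (SE 0.20), CBR4, a subunit of a mitochondrial fatty acid synthesis reductase, by 1.02 (SE 0.13), ELOVL4, of very long chains, by 0.90 (SE 0.19), and HACD3, a dehydratase of the elongation cycle, by 0.76 (SE 0.17), with adjusted p from 0.000165 to 0.00409 (limma). Control clone 2 lay apart in HACD3, at 9.6, while control clones 3, 4 and 5 lay between 10.37 and 10.41. FASN, the synthase itself, averaged 9.97 ± 0.02 in the RWDD4 clones and 10.31 ± 0.06 in the control clones (SD, n = 4 each). It fell by 0.34 (SE 0.08; adjusted p 0.00535), a small difference without overlap. FADS3 of the desaturase cluster fell by 0.82 (SE 0.09), the desaturase FADS2 by 0.29 (SE 0.08) and THRSP, a lipogenic regulator, by 0.29 (SE 0.10). The fall of THRSP did not pass after quantile normalization, cyclic loess or removal of the span trend, nor without control clone 2, 4 or 5 or RWDD4 clone 24, 5 or 6. MID1IP1, which promotes polymerisation of acetyl-CoA carboxylase, fell by 0.26 with the probe set used, while its dimmer probe set passed the other way, at 0.38; it was named for this after its values were seen. The delta-9 desaturase SCD, at 0.27 (SE 0.19), and FADS1, at -0.26 (SE 0.12), did not pass. FADS1 fell past the threshold after quantile normalization (-0.43), median centring (-0.38) and cyclic loess (-0.36), with array weights (-0.30) and without control clone 2 (-0.35), and SCD rose past it without control clone 3 (0.45). With the span trend removed 4 genes rose, after median centring 10 fell, and without RWDD4 clone 5 or without control clone 5 only 3 fell.

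The elongases were measured in full. ELOVL2, ELOVL4 and ELOVL6, which lengthens palmitate, rose, the last by 0.55 (SE 0.09); ELOVL1, of saturated very long chains, fell by 0.27 (SE 0.09), and ELOVL3 and ELOVL7 did not pass, at -0.27 (SE 0.11) and 0.27 (SE 0.14). ELOVL6 averaged 5.91 ± 0.11 in the RWDD4 clones and 5.35 ± 0.10 in the control clones (SD, n = 4 each), and its adjusted p of 0.000929 became 0.0542 once each array's trend over genomic span was removed. ELOVL1, ELOVL3 and ELOVL7 are named to complete the family.

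Of 14 sterol synthesis genes measured 4 fell, 1 rose and 9 did not pass, with a median of -0.16. The 28.6% that fell stand beside 21.6% of all genes, and without control clone 3 it was 3 that rose. TM7SF2, a sterol reductase of the endoplasmic reticulum, lay at 6.47, 6.91, 6.61 and 6.12 in RWDD4 clones 17, 24, 5 and 6, against 7.57, 7.46, 7.36 and 7.04 in control clones 2, 3, 4 and 5, and fell by 0.83 (SE 0.17; adjusted p 0.00257). LBR, the lamin B receptor of the nuclear envelope, which can carry out the same reduction, lay at 7.24, 7.29, 7.60 and 7.32 in RWDD4 clones 17, 24, 5 and 6, against 6.18, 6.38, 6.50 and 6.72 in control clones 2, 3, 4 and 5, and rose by 0.92 (SE 0.13; adjusted p 0.000305). Neither gene's groups overlapped. The mevalonate kinase MVK fell by 0.55 (SE 0.13), the sterol isomerase EBP by 0.49 (SE 0.10) and FDPS, which makes farnesyl diphosphate, by 0.37 (SE 0.12; adjusted p 0.0321). FDPS did not pass without control clone 2, without control clone 3 or 4, without RWDD4 clone 24, 5 or 6, or with the span trend removed. HMGCS1, which opens the mevalonate branch, and IDI1, which isomerises its product, did not pass, at 0.14 (SE 0.25) and 0.33 (SE 0.15). Without control clone 3 IDI1 passed, at 0.45, and without control clone 2 HMGCS1 lay at -0.08.

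Among genes that control the SREBPs and lipoprotein uptake, 6 of 12 measured rose and 2 fell, with a median of 0.45. With a minimum mean of 5 it was 5 that rose, with a median of 0.25. PAQR3, which rose, averaged 4.85 over the 8 arrays and is named only for its low value. SREBF2, which encodes the SREBP that mainly drives sterol genes, lay at 7.70, 8.01, 7.98 and 7.89 in RWDD4 clones 17, 24, 5 and 6, against 8.26, 8.64, 8.27 and 8.28 in control clones 2, 3, 4 and 5. It fell by 0.47 (SE 0.12; adjusted p 0.00732). SCAP fell by 0.30 (SE 0.10; adjusted p 0.0337), and did not pass without control clone 2 or 4 or without RWDD4 clone 24, 5 or 6. INSIG2, a retention protein of the endoplasmic reticulum, rose by 0.81 (SE 0.20), while INSIG1 lay at -0.21 (SE 0.15) and did not pass (adjusted p 0.263), except after quantile normalization, where it fell by 0.40. TMEM97, the sigma receptor that binds the cholesterol transporter NPC1, rose by 0.94 (SE 0.12), RNF139, a ubiquitin ligase of the endoplasmic reticulum membrane, by 0.86 (SE 0.17) and ERLIN1, a scaffold there, by 0.75 (SE 0.19).

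Of 9 measured genes supplying acetyl-CoA and NADPH 4 rose, 1 fell and 4 did not pass, with a median of 0.21. With the span trend removed 3 rose and 4 fell, and the median was -0.09. As deposited, the thiolase ACAT1 rose by 0.80 (SE 0.13), PDHA1 and PDHB of pyruvate dehydrogenase by 0.65 (SE 0.12) and 0.43 (SE 0.13), and citrate synthase (CS) by 0.41 (SE 0.13). Pyruvate carboxylase (PC) fell by 0.57 (SE 0.16). ACLY, which makes acetyl-CoA from citrate, averaged 10.95 ± 0.09 in the RWDD4 clones and 10.73 ± 0.22 in the control clones (SD, n = 4 each; adjusted p 0.151 by limma). PDHB did not pass after quantile normalization or without control clone 4, RWDD4 clone 17 or RWDD4 clone 5. With RWDD4 clone 5 left out 2 genes rose. CS failed the test after median centring, quantile normalization or removal of the span trend, without control clone 2 or 3, or without RWDD4 clone 5 or 6.

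Among genes that activate fatty acids and build or break glycerolipids, 7 of 18 rose and 4 fell. ACSL4, which activates arachidonate, rose by 1.86 (SE 0.27), the highest value among the 91 genes, and lay at 8.37, 8.27, 8.26 and 8.59 in RWDD4 clones 17, 24, 5 and 6, against 5.54, 6.73, 6.78 and 7.03 in control clones 2, 3, 4 and 5. Its groups were far apart, and control clone 2 was again the lowest. ACSL1 rose by 1.12 (SE 0.16), ABHD5, the activator of triglyceride lipase, by 1.0 (SE 0.15) and the phosphatidate phosphatase LPIN2 by 0.79 (SE 0.26). Its paralog LPIN3 fell by 0.73 (SE 0.11), the lipase PNPLA2 by 0.62 (SE 0.17), the droplet protein PLIN3 by 0.48 (SE 0.13) and the acyltransferase DGAT1 by 0.40 (SE 0.09). LPIN2 did not pass without control clone 4, without RWDD4 clone 24, 5 or 6, or with the span trend removed, and PNPLA2 did not pass in the last of these. Without RWDD4 clone 24 or 6, or with the span trend removed, 4 genes rose.

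In fatty acid oxidation 4 of 9 rose and 2 fell. ACAA2, a mitochondrial thiolase, rose by 1.26 (SE 0.24), ECI2, an enoyl-CoA isomerase, by 1.21 (SE 0.12), ETFDH, which passes electrons to ubiquinone, by 1.18 (SE 0.16) and HADH by 0.62 (SE 0.12). ECI1, the mitochondrial paralog of ECI2, fell by 0.61 (SE 0.15), and CPT1C by 0.80 (SE 0.19). On the list of lipid sensing, esterification and efflux 8 of 25 genes were measured, of which 3 rose and 3 fell. ABCA1, ABCG1 and SCARB1 of cholesterol efflux were not measured, so the counts do not cover efflux. SOAT1, which esterifies cholesterol, and NCEH1, which hydrolyses the esters, rose by 1.11 each (SE 0.15 and 0.16). The oxysterol-binding OSBP rose by 0.77 (SE 0.18). STK11, the kinase upstream of AMPK, STARD3 of endosomal cholesterol transport and the carbohydrate-responsive factor MLXIPL fell by 0.96 (SE 0.16), 0.60 (SE 0.08) and 0.32 (SE 0.09). After median centring 5 of these 8 fell.

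Sterol genes also varied among clones of 1 group, a measure that the choice of the 7 genes did not use. This was looked at after the values were seen and is given without a test. Control clone 3 was the highest control clone in 10 of the 14 listed sterol genes, beside 27.2% of all genes, and also in SQLE and DHCR7. It stood above the control mean by 0.96 in MSMO1, 0.75 in HMGCS1, 0.53 in SQLE and 0.48 in ACAT2. Control clone 2 was lowest in 6 of the 14, or 42.9%, near its 35.7% of all genes. It lay at -0.91 in MSMO1, -0.65 in HMGCS1 and -0.40 in SQLE from the same means, yet was highest of the controls in MVD, at 0.67. Among the RWDD4 clones, clone 6 was the lowest in 10 of the 14, beside 27.4% of all genes, with ACAT2 at -0.49 and PMVK at -0.46 from the RWDD4 mean. SDs were smaller among the RWDD4 clones in 12 of the 14 sterol genes and 6 of the 7 chosen genes, and in 64% of all genes.

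**Figure D2:**
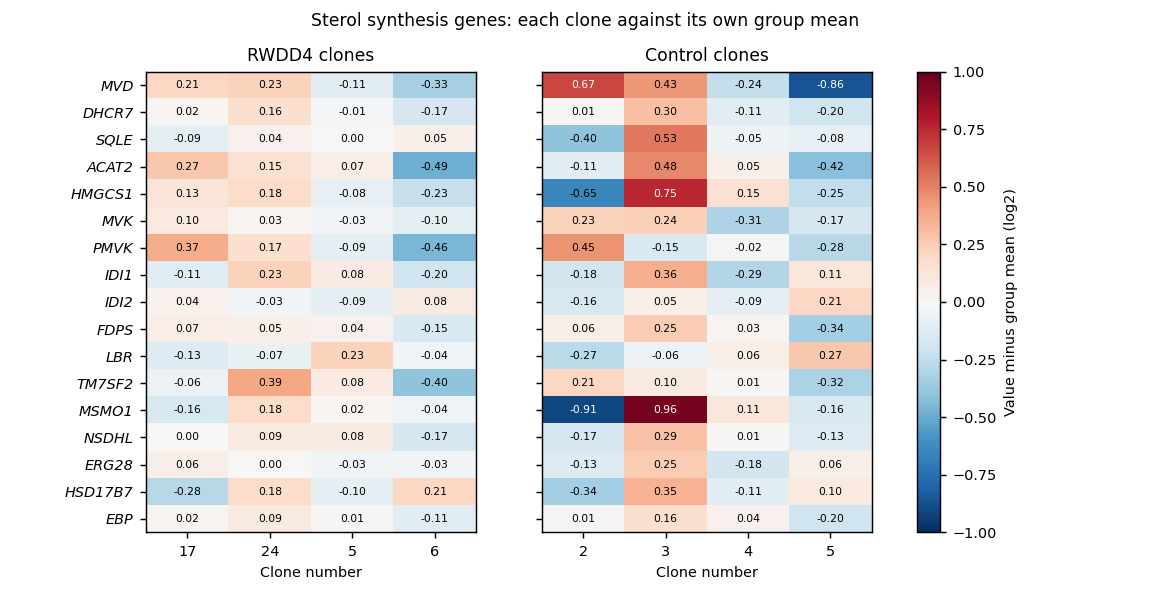
Log2 value of each clone minus its own group's mean (colour and number) for 17 sterol synthesis genes, RWDD4 clones on the left and control clones on the right. Control clone 3 is positive in most genes, up to 0.96 in MSMO1, and RWDD4 clone 6 negative in most, down to -0.49 in ACAT2.

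The genes whose profile over the 8 clones lay nearest, among 11761 protein-coding genes compared after centring each profile on its mean, were in no case on the 7 lists. The lists hold only 91 of the 14884 genes measured, so nothing is read from this. A centred profile also contains the group difference on which the 7 genes were chosen, and the neighbours share that difference. For ELOVL5 they were RNF103 and USP40 at a root mean square distance of 0.04 each, where the median gene lay at 0.52. For ACACA they were KLHL12 and KDM5A at 0.08 each (median 0.67), for SQLE KDELR3 and TMCO1 at 0.07 and 0.08 (median 0.43), and for SREBF1 CHMP6 and LENG1 at 0.05 and 0.06 (median 0.33). For ACSS2 they were RTP4 and JAG2 at 0.07 each (median 0.35), and for DHCR7 CALCOCO1 and XYLT2 at 0.05 and 0.07 (median 0.37). MVD had the most distant neighbours, TRADD at 0.22 and DDIT4 at 0.25 (median 0.71).

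ACACA spans 322 kb and ELOVL5 81.5 kb, at or above 96.3% and 78.1% of the protein-coding genes measured, and both were higher in the RWDD4 clones. MVD spans 11.2 kb, DHCR7 21.8 kb and SREBF1 25.7 kb, and these were lower, but SQLE at 23.8 kb was higher and ACSS2 at 53 kb lower. Among the 91 listed genes the median span was 44.4 kb for those that rose and 19.8 kb for those that fell, beside 48.4 kb and 11.3 kb among all genes. In 5 of the 7 lists the genes that rose had the longer median span. SREBP control went the other way, with 29.2 kb for the 6 genes that rose and 68.8 kb for the 2 that fell, and so did acetyl-CoA supply, with 23.2 kb for the 4 that rose and 110 kb for the 1 that fell. With each array's trend over span removed the differences were 0.93 for ACACA, 0.54 for ELOVL5, 0.46 for SQLE, -0.91 for ACSS2, -0.70 for SREBF1, -0.94 for MVD and -0.70 for DHCR7. The part of span in the differences was not tested beyond this.

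**Figure D3:**
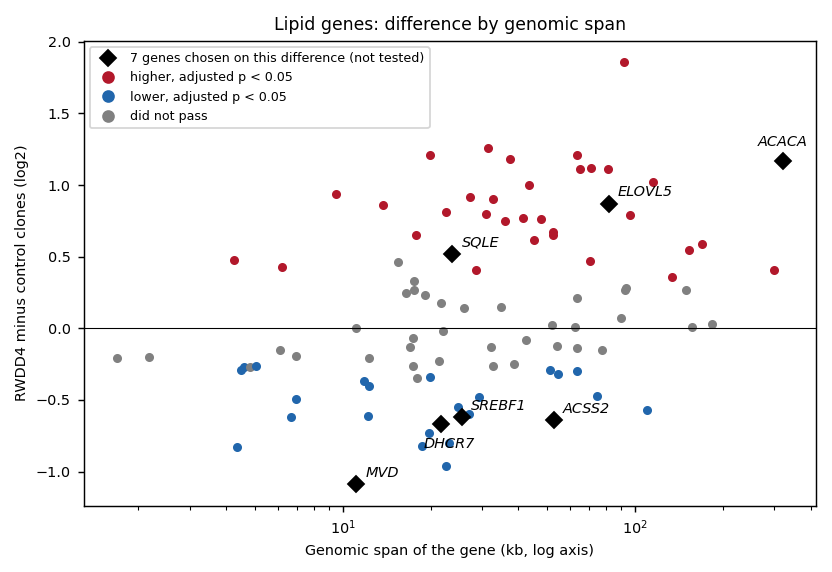
Difference of RWDD4 minus control clones (vertical axis, log2) against genomic span (horizontal axis, kb, log scale) for the 91 listed genes (points) and the 7 chosen genes (diamonds, named). ACACA, with the longest span of the 7 at 322 kb, lies at 1.17 and MVD, with the shortest at 11.2 kb, at -1.09, while SQLE and SREBF1 of like span lie at 0.52 and -0.62.

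The position of each array on the leading axis of variation within the groups also parted them, with RWDD4 clones between 19.7 and 35.9 and control clones between -58.4 and -12.2 in log2 units along that axis. With that position as a covariate the differences were 0.65 (SE 0.29) for ACACA, 0.29 (SE 0.19) for ELOVL5, -0.83 (SE 0.23) for ACSS2, -0.33 (SE 0.20) for SREBF1, -0.56 (SE 0.27) for DHCR7, 0.19 (SE 0.47) for MVD and -0.13 (SE 0.29) for SQLE. The last 2 changed sign, each by a value smaller than its error, and 1 gene of 14884 passed the test in that fit. As the groups do not overlap on the axis, the axis and the groups cannot be told apart.

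**Figure D4:**
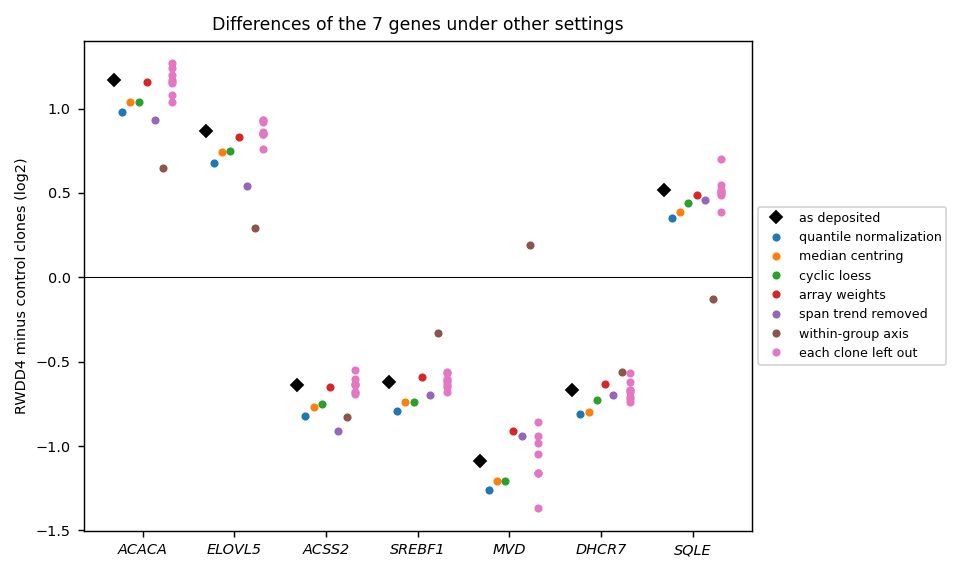
Difference of RWDD4 minus control clones (vertical axis, log2) of the 7 genes as deposited (diamonds), under 6 other settings and with each clone left out (circles). All values keep their sign except MVD (0.19) and SQLE (-0.13) with the within-group axis in the fit.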

How the data were processed

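RNA of 8 PC-3 clones, 1 array each, had been purified on columns, treated with DNase and biotin-labelled, per the labels' protocols. The authors deposited a log2 value for each probe set on each array. Partek and RMA are named in the submitters' processing notes (background correction, normalization between arrays, probe set summary); the sources used here give no settings, genome build or scan dates. The number of arrays limits the precision.

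Of 53617 probe sets 16098 were annotated with 1 gene symbol, 0 with several, and 37519 were unlisted. They stood for 14884 genes, all matched by gene ID to RefSeq (GRCh38.p14) for current symbols and genomic span; a gene with several probe sets was read from the one whose mean over all arrays was highest. RWDD4 minus control clones was tested, two-sided, by limma 3.58.1 (lmFit, eBayes; R 4.3.3) with no covariate. P values were adjusted over all genes by Benjamini-Hochberg, with a threshold of 0.05; rose, fell and passed refer to it. Errors are SDs over 4 clones or SEs of the fit. P-values by limma set each difference against the spread within the groups of these 8 isolates, with variances moderated over all genes. Since nothing says that clones were grown more than 1 time, clone, culture and array cannot be told apart in that spread. The steps were tested on simulated data.

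The 7 genes and the lists were chosen with earlier results of these data known. Named besides the 7 were up to 4 genes per list and direction with the largest differences that passed, and a fixed set of pathway genes; exceptions are stated. Alternatives were a trended robust variance model, the mean of all probe sets, a minimum mean of 5, quantile normalization, median centring, cyclic loess, array weights, removal of a lowess trend (smoother span 0.3) of every array against log2 gene length on the genome, the within-group axis as a covariate, and leaving out each clone.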

Additional observations from a re-analysis of the deposited data

Results flagged for a closer look

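In 118 groups of 4 clones (the 7 genes and the other named genes), 10 held a clone whose gap to the nearest other clone exceeded Dixon's critical share of the group's range, where chance gives about 1 in 20. ELOVL5 in the RWDD4 clones had a ratio of 0.973, with clone 24 at 8.44 and the others at 8.69 to 8.70, a gap of small absolute size. RWDD4 itself had 0.936 in the RWDD4 clones, with clone 6 at 9.87 and the others at 10.42 to 10.46. SREBF2 had 0.937 in the control clones, with clone 3 at 8.64 and the others at 8.26 to 8.28. Control clone 2 was the distant one in SCAP (ratio 0.882, at 9.55 against 9.33 to 9.35), CBR4 (0.857, at 6.04 against 6.38 to 6.43), HACD3 (0.959, at 9.60 against 10.37 to 10.41) and STARD3 (0.835, at 9.13 against 8.96 to 8.99). Among the RWDD4 clones, ELOVL2 had 0.846 with clone 17 at 7.25 against 7.81 to 7.92, FDPS 0.864 with clone 6 at 7.62 against 7.80 to 7.83, and CPT1C 0.873 with clone 24 at 8.21 against 7.39 to 7.5.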

How the results depend on the processing

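No paired analysis was possible because the groups share 1 clone number, and nothing in the labels ties it to a shared culture. The differences of the 7 genes kept their sign under the scalings, the other variance model, array weights, the other probe set rule, the filter and removal of the span trend. They moved by more than the SD between clones after quantile normalization in ELOVL5 (0.68), ACSS2 (-0.82) and SREBF1 (-0.79), with the span trend removed in ELOVL5 (0.54) and ACSS2 (-0.91), and with the within-group axis in the fit in ACACA (0.65), ELOVL5 (0.29), ACSS2 (-0.83) and SREBF1 (-0.33), where MVD (0.19) and SQLE (-0.13) changed sign; the cause was not tested. Leaving out each clone gave 1.04 to 1.27 for ACACA, 0.76 to 0.93 for ELOVL5, -0.69 to -0.55 for ACSS2, -0.68 to -0.56 for SREBF1, -1.37 to -0.86 for MVD, -0.74 to -0.57 for DHCR7 and 0.39 to 0.70 for SQLE.

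Counts that passed also moved. Over all genes 5765 fell after median centring, and with the axis as a covariate 0 rose and 1 fell (1910 genes had an unadjusted p under 0.05 by limma); there all 7 lists had 0 up and 0 down. In acetyl-CoA supply 2 fell, in place of 1, with the mean of all probe sets, the filter, quantile normalization (where 2 rose), median centring, cyclic loess and array weights, and 4 fell with the span trend removed. Median centring gave 10 falls in fatty acid synthesis and 5 in lipid sensing, and removal of the span trend gave 4 rises in fatty acid synthesis and 4 in glycerolipid assembly. Leaving out each clone gave 3 to 6 falls in fatty acid synthesis, 1 to 3 rises in sterol synthesis, 1 to 2 falls in SREBP control, 2 to 4 rises and 1 to 2 falls in acetyl-CoA supply, 4 to 7 rises in glycerolipid assembly, and 3372 to 3737 rises and 2258 to 3031 falls over all genes. With the axis as a covariate ELOVL4 (-0.10), HACD3 (-0.14), ERLIN1 (-0.24), PDHB (-0.04), CS (-0.16), PC (0.18), LPIN2 (-0.62), ECI1 (0.12) and OSBP (-0.17) changed sign without passing, as did SCD (-0.64), HMGCS1 (-0.62) and ACLY (-0.23), which had not passed as deposited. In the other settings 2 of 52 named genes changed sign, ACLY with the span trend removed (-0.09) and HMGCS1 without control clone 2 (-0.08), neither passing before or after. Of 831 values in those settings 39 no longer passed and 8 newly passed, 5 of these for FADS1 and 1 each for INSIG1, SCD and IDI1.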

Other observations

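Several pairs of related enzymes lay on opposite sides or moved unequally in the RWDD4 clones. The pairs were put together after the values were seen, so the differences within pairs are given without a test. LBR lay at 0.92 and TM7SF2 at -0.83, ECI2 at 1.21 and ECI1 at -0.61, LPIN2 at 0.79 and LPIN3 at -0.73, INSIG2 at 0.81 and INSIG1 at -0.21, and SCD5 at 0.59 (SE 0.12) and SCD at 0.27. In these 5 pairs the higher gene has the longer genomic span, which is 27.3 kb for LBR and 4.36 kb for TM7SF2, 19.9 kb for ECI2 and 12.2 kb for ECI1, 96.2 kb for LPIN2 and 19.8 kb for LPIN3, 22.5 kb for INSIG2 and 12.4 kb for INSIG1, and 169 kb for SCD5 and 17.6 kb for SCD. Other related genes went the other way. RNF139 lay at 0.86 with 13.7 kb and RNF145 at 0.67 with 52.6 kb. MLX lay at -0.15 with 6.1 kb and MLXIPL at -0.32 with 54.7 kb. ACSS1 lay at 0.02 with 51.9 kb and ACSS2 at -0.64 with 53 kb. PLIN2 lay at 0.23 with 19.1 kb and PLIN3 at -0.48 with 29.3 kb. With each array's trend over span removed, LBR lay at 0.81 and TM7SF2 at -0.58, and ECI2 at 1.2 and ECI1 at -0.48. In the same setting LPIN2 lay at 0.46 and LPIN3 at -0.73, and INSIG2 at 0.77 and INSIG1 at -0.09. SCD lay at 0.3 there, and SCD5 was not among the genes followed through the settings. The part of span within the pairs was not tested beyond this.

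Of the markers of fat cells, PLIN1 averaged 5.85 ± 0.05 in the RWDD4 clones and 5.99 ± 0.13 in the control clones, and LPL averaged 3.08 ± 0.05 in the RWDD4 clones and 3.23 ± 0.08 in the control clones (SD, n = 4 each). Neither passed the test.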
